A study of Mus musculus with 6 samples.

Results

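The homeostatic microglia genes are 9 genes that resting microglia, the resident macrophages of the brain, express: Cx3cr1, P2ry12, P2ry13, Tmem119, Siglech, Sall1, Csf1r, Gpr34 and Olfml3. All probe sets that the platform annotation assigns to exactly 1 of these symbols were taken. This gave 13 of the 45037 probe sets tested, and all 9 genes were measured by at least 1 of them. Csf1r had 3 probe sets, Cx3cr1 and Sall1 had 2 each, and the others had 1. Chromosomes are given from a RefSeq gene table of assembly GRCm38.p6.

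Gene expression was read on 6 Affymetrix mouse arrays, 3 per group, from eGFP-positive cells obtained by flow cytometry from somatosensory grey matter. The reactive group came from GFAP-eGFP mice, TgN(hGFAP-EGFP) GFEA, whose reporter is under a human GFAP promoter. Their cortex had been stabbed 5 days earlier to a depth of 0.7 mm over a length between 1 and 1.2 mm. The non-reactive group came from the matching region of uninjured Aldh1L1-eGFP mice, Tg(Aldh1l1-eGFP)OFC789Gsat, in which the reporter follows the astrocyte gene Aldh1l1. All animals had the FVB/N background and were aged between 2 and 3 months, with sex not determined, and each array carried a pool of cells from about 15 animals. Injury and reporter line coincided and cannot be told apart. Both gates select astrocytes by their reporter, so microglial transcripts are not those of the cell type named in the labels.

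Microglia depend on the receptor Csf1r, whose ligands are Csf1 and Il34, for survival. They sense neuronal fractalkine through Cx3cr1 and extracellular nucleotides through P2ry12, and transforming growth factor beta together with the transcription factor Sall1 maintains their resting gene programme. When microglia respond to injury, P2ry12, Tmem119 and Cx3cr1 are commonly lowered while lysosomal, complement and phagocytic genes are raised. Blood-derived macrophages express Csf1r but little Tmem119, P2ry12, Siglech or Sall1.

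P2ry12 and P2ry13 encode related nucleotide receptors and are near neighbours on chromosome 3. Their promoters are shown because the arrays gave the pair different patterns. Each is the 250 bases before the RefSeq start of the gene, build GRCm38.p6, read along the gene's own minus strand. Capitals mark the letters GGAAGT or GAGGAA, which contain the GGAA core read by ETS factors such as the myeloid factor PU.1.
P2ry13, chr3:59210883-59211132, minus strand: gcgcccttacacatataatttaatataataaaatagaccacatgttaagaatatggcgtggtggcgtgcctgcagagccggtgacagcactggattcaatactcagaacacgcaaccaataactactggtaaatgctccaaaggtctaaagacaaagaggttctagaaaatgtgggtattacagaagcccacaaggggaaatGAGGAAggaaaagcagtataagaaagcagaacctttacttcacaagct
P2ry12, chr3:59262986-59263235, minus strand: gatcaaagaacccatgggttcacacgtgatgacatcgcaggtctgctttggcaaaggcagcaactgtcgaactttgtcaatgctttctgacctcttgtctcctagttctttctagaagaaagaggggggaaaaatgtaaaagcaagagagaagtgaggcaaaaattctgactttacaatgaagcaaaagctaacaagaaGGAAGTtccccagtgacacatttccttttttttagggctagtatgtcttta

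The P2ry13 window held GAGGAA 48 bases before the start and the P2ry12 window held GGAAGT 51 bases before it, both on the gene's own strand. The motifs were searched on both strands, and they overlap each other where the 4 shared letters GGAA coincide. Chromosome 18, where Csf1r lies, was left out of the search among the members. The search covered 8 windows for 6 of the 9 genes, 3 of them for Sall1. At least 1 of the motifs was found for 4 of these genes. That is a count of genes, whereas the shares that follow are of windows, with no chromosome left out. Of 32851 promoter windows of the same length, 19.7% held GGAAGT, 23.3% held GAGGAA and 36.7% held at least 1 of them. A match is a run of letters and no evidence of binding.

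The deposited unit is the log2 RMA value, where RMA stands for robust multi-array average. The median of all probe set means was 4.74, and values near or below it were treated as dim. Reactive replicate 3 stood apart in marker genes of other cells: the mean of 15 genes of border macrophages, monocytes and neutrophils was 7.43 there, against 6.25 and 5.94 on the other reactive arrays, and the mean of 7 endothelial genes was 5.73 there, against 4.81 and 4.41. The differences of P2ry13 and P2ry12 are also given without this array.

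None of the 13 member probe sets passed limma's threshold, a Benjamini-Hochberg adjusted p under 0.05 over all probe sets, at which 0.850% of all probe sets were called. At an unadjusted p under 0.05 there were 6 member probe sets, all higher in the reactive group, where 6.34% of all probe sets were higher at that level. They belonged to Tmem119, P2ry13 and Olfml3, to Csf1r without its brightest probe set, and to Cx3cr1 by its dimmer one. With each gene read by its probe set with the highest mean, 3 of 9 genes were higher at that level in limma. Of all genes 7.88% were. The median log2 fold change, reactive minus non-reactive, was 0.81 over the 13 probe sets and 0.10 over all probe sets. Log2 fold changes were above 0 for 11 of 13, against 60.4% of all probe sets. In 6 of 13 every reactive array lay above every non-reactive one, against 12.8% of all probe sets, and in 1 of 13 every reactive array lay below, against 8.08%. In sorted pools, a change in the number of microglia that passed the gate and a change in the RNA of each such cell cannot be told apart.

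**Figure D1:**
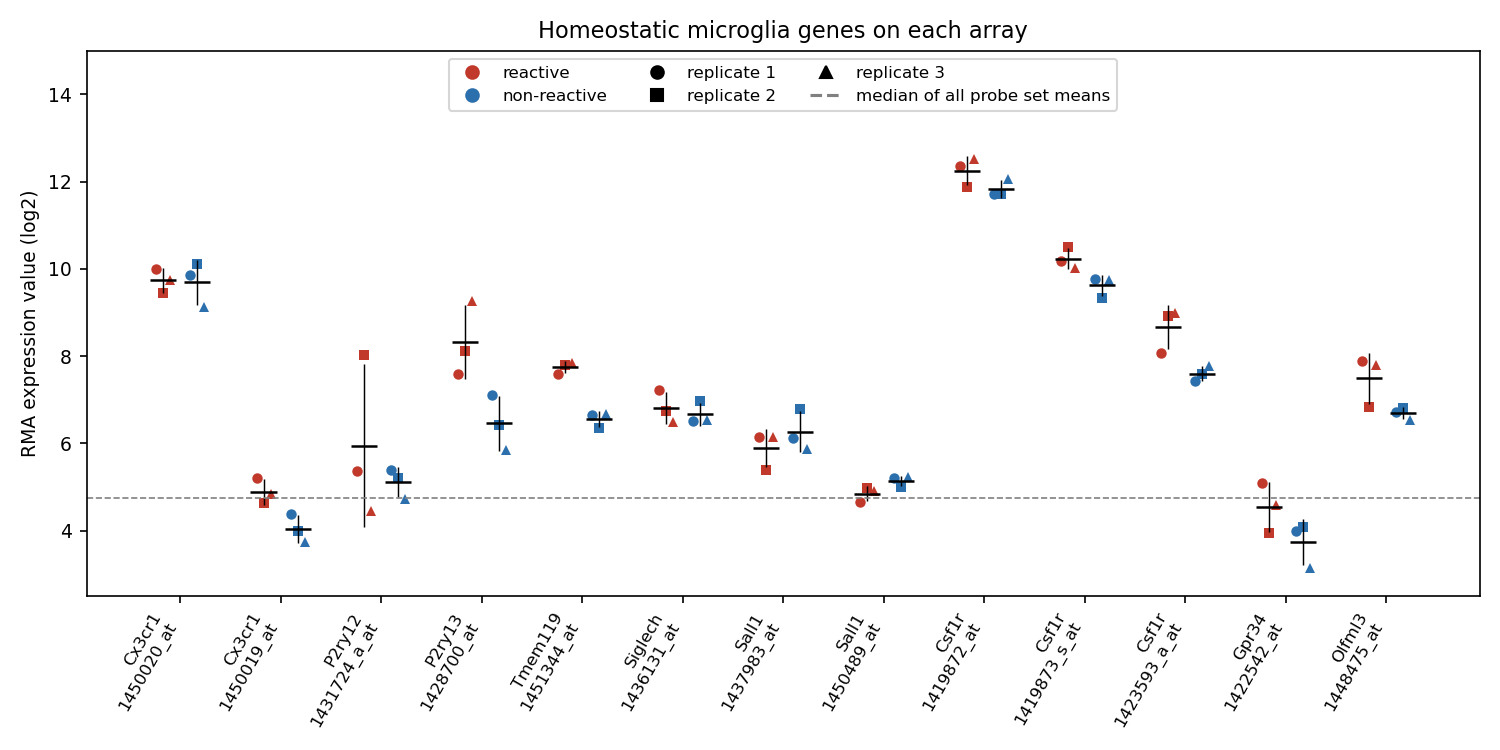
RMA value (log2) of each member probe set on each array, with reactive arrays in red on the left and non-reactive arrays in blue on the right of each pair; markers give the replicate, horizontal bars the group mean and vertical bars the SD (n = 3). Tmem119 and P2ry13 separate the groups, whereas the brighter Cx3cr1 probe set and Siglech do not, and P2ry12 has 1 high reactive array.

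Tmem119, on chromosome 5, encodes a transmembrane protein used as a marker that separates microglia from blood-derived macrophages. It measured 7.59, 7.80 and 7.85 in reactive replicates 1, 2 and 3, against 6.65, 6.35 and 6.68 in non-reactive replicates 1, 2 and 3. The groups did not overlap and the replicates within each lay close together, with means of 7.74 ± 0.14 and 6.56 ± 0.18 (SD, n = 3). The log2 fold change was 1.19 (SE 0.20, 95% interval 0.70 to 1.67), a 2.27-fold higher mean in the reactive group, with a limma adjusted p of 0.0628. It was the member nearest to the threshold. The call depended on the scaling of the arrays: with cyclic loess the log2 fold change was 1.23 with a limma adjusted p of 0.0495, and the 14 alternatives gave adjusted p between 0.0495 and 0.223.

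P2ry13, a receptor for adenosine diphosphate, had the highest log2 fold change among the members. Its values were 7.58, 8.12 and 9.26 in the reactive group, against 7.11, 6.41 and 5.86 in the non-reactive group. All reactive arrays lay above all non-reactive ones, and the spread within both groups was wide. The log2 fold change was 1.86 (SE 0.51, 95% interval 0.66 to 3.07; limma adjusted p = 0.189), or 3.64-fold. Without reactive replicate 3 it was 1.39, and over the alternatives it ran from 1.39 to 2.23.

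P2ry12, the receptor that directs microglial processes towards sites of nucleotide release, gave no such separation. It measured 5.37, 8.03 and 4.44 in the reactive group, against 5.40, 5.21 and 4.73 in the non-reactive group. Reactive replicate 2 alone was high, and the other reactive arrays lay within or below the non-reactive range. The log2 fold change of 0.84 had an interval of -1.23 to 2.90 (SE 0.86, limma adjusted p = 0.700). Without reactive replicate 2 it was -0.21, so the sign of this value rested on 1 array. Without reactive replicate 3 it was 1.59.

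Gpr34, on chromosome X, encodes a receptor for lysophosphatidylserine. Its values were 5.10, 3.96 and 4.58 in the reactive group, against 3.98, 4.09 and 3.14 in the non-reactive group. The groups overlapped, and both means, 4.54 and 3.74, were under the overall median of 4.74. The log2 fold change was 0.81 (SE 0.39, 95% interval -0.12 to 1.73; limma adjusted p = 0.430), and its size is uncertain at this signal.

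Cx3cr1, the fractalkine receptor on chromosome 9, was read by 2 probe sets that differed in signal. The brighter one, 1450020_at, measured 10.01, 9.45 and 9.75 in the reactive group, against 9.87, 10.10 and 9.12 in the non-reactive group. The groups overlapped fully, and the log2 fold change was 0.04 (SE 0.31, 95% interval -0.71 to 0.79; limma adjusted p = 0.970). Without reactive replicate 1 this value was -0.10, and without non-reactive replicate 3 it was -0.25. The dimmer one, 1450019_at, measured 5.20, 4.62 and 4.84, against 4.37, 3.999 and 3.74 in the non-reactive group. There the groups did not overlap, with a log2 fold change of 0.85 (SE 0.26, limma adjusted p = 0.242), but its non-reactive mean of 4.04 was below 4.74.

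Csf1r, the receptor tyrosine kinase for Csf1 and Il34, lies on chromosome 18. Its brightest probe set, 1419872_at, measured 12.35, 11.88 and 12.52 in the reactive group, against 11.72, 11.72 and 12.06 in the non-reactive group. These overlapped, since reactive replicate 2 lay below non-reactive replicate 3, and the log2 fold change was 0.42 (SE 0.25, limma adjusted p = 0.510). Probe set 1419873_s_at measured 10.19, 10.50 and 10.02, against 9.78, 9.34 and 9.75 in the non-reactive group. Probe set 1423593_a_at measured 8.08, 8.91 and 8.99, against 7.43, 7.60 and 7.77 in the non-reactive group. Both of these separated the groups, with log2 fold changes of 0.62 (SE 0.23, limma adjusted p = 0.335) and 1.06 (SE 0.29, limma adjusted p = 0.199).

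Siglech, a sialic acid-binding surface protein on chromosome 7, measured 7.21, 6.74 and 6.48 in the reactive group, against 6.50, 6.96 and 6.53 in the non-reactive group. The groups overlapped, with a log2 fold change of 0.15 (SE 0.27, 95% interval -0.49 to 0.78; limma adjusted p = 0.832). Without reactive replicate 1 it was -0.05.

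Sall1, the zinc finger transcription factor of microglial identity on chromosome 8, was the one member whose log2 fold changes were below 0. Probe set 1437983_at measured 6.14, 5.38 and 6.15 in the reactive group, against 6.13, 6.79 and 5.88 in the non-reactive group. These overlapped, with a log2 fold change of -0.37 (SE 0.34, 95% interval -1.18 to 0.43; limma adjusted p = 0.656). Probe set 1450489_at measured 4.65, 4.97 and 4.91, against 5.19, 5.01 and 5.22 in the non-reactive group. Every reactive array lay below every non-reactive one by a narrow margin, and the log2 fold change was -0.30 (SE 0.20, 95% interval -0.77 to 0.17; limma adjusted p = 0.556).

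Olfml3, which encodes a secreted matrix glycoprotein, measured 7.88, 6.82 and 7.79 in the reactive group, against 6.71, 6.82 and 6.54 in the non-reactive group. Reactive replicate 2, at 6.823, lay almost level with non-reactive replicate 2, at 6.817, while the other reactive arrays lay above all non-reactive ones. The log2 fold change was 0.81 (SE 0.32, 95% interval 0.04 to 1.57; limma adjusted p = 0.356), and without reactive replicate 2 it was 1.14.

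**Figure D2:**
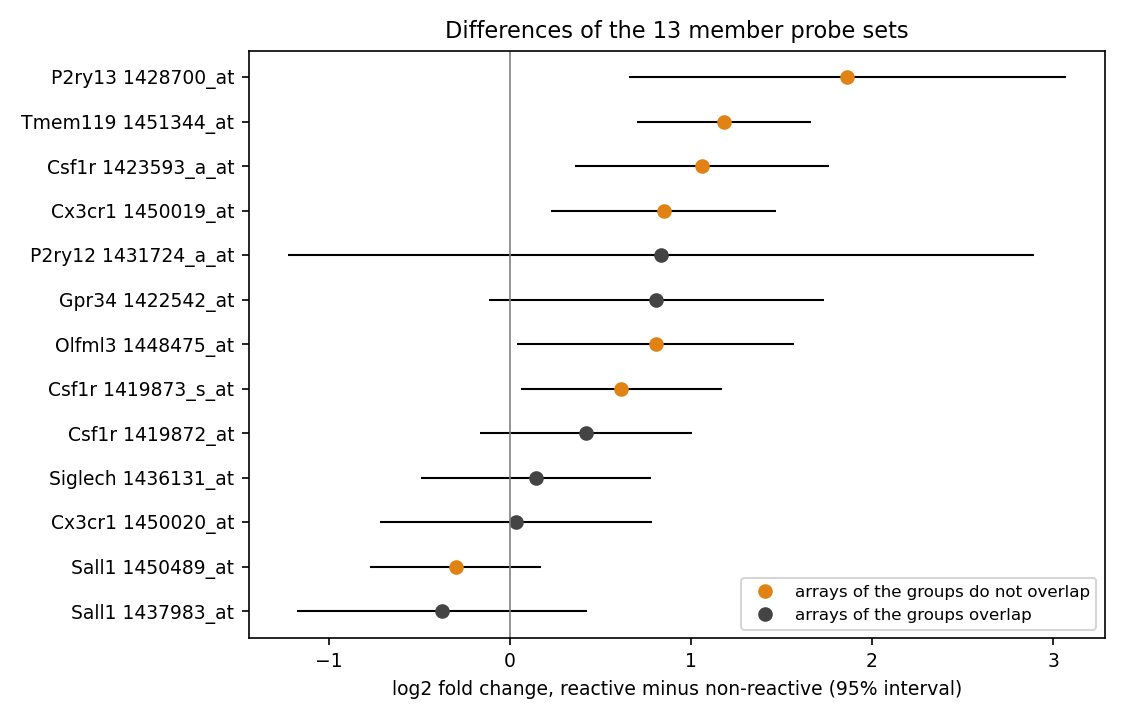
Log2 fold change, reactive minus non-reactive, of the 13 member probe sets with 95% intervals from limma, ordered from the highest at the top; orange points mark probe sets whose groups do not overlap. P2ry13 and Tmem119 lie highest at 1.86 and 1.19, both Sall1 probe sets lie below 0, and the P2ry12 interval is the widest, from -1.23 to 2.90.

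The genes with the most similar profile were sought for Cx3cr1 and P2ry12, by the root mean square difference of centred log2 values over the 6 arrays among 12111 genes brighter than the median. For Cx3cr1 they were Thap7 at 0.10, Vps33b at 0.13, Ppfia4 at 0.13, Glis2 at 0.14 and Ankrd9 at 0.15, and none of the macrophage genes listed here was among them. The Cx3cr1 probe set used differed by only 0.04, so genes with a large difference could not rank near it. Their absence therefore shows nothing about macrophage genes. For P2ry12, whose values spanned 3.59 log2 units, they were Glrp1 at 0.23, Klhl20 at 0.28, Gm34996 at 0.30, Lca5l at 0.31 and Polr3b at 0.33. With 6 arrays such a ranking follows single arrays, in the case of P2ry12 the high reactive replicate 2.

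The other genes of the resting programme were taken from a list of 16, of which 14 were measured, each by its probe set with the highest mean. Mertk, a phagocytic receptor that astrocytes also express, fell, and no gene of the list rose, where 0.561% of all genes fell and 0.390% rose. Mertk measured 8.61, 8.52 and 8.79 in the reactive group, against 10.68, 10.49 and 9.96 in the non-reactive group, a log2 fold change of -1.74 (SE 0.25, limma adjusted p = 0.0441), a call lost with eBayes trend and with any 1 array left out. Fcrls, an Fc receptor-like gene of microglia, was chosen after its values were seen. It measured 7.77, 7.86 and 9.17 in the reactive group, against 5.83, 5.99 and 5.58 in the non-reactive group. Its groups lay far apart, yet the log2 fold change of 2.47 (SE 0.40) had a limma adjusted p of 0.0579. Rgs10, a regulator of G protein signalling, differed by 1.28, Selplg, the P-selectin ligand, by 0.19 and Itgb5, an integrin subunit, by -0.13 without passing. The list's median log2 fold change was 0.44, against 0.12 over all genes, and 10 of 14 values were above 0, against 60.7% of all genes. Over all lists described here 22 of 126 genes passed. Leaving out reactive replicate 1, 2 or 3 gave 4, 11 and 12, and leaving out a non-reactive array gave 0 each time, with 57 to 59 at an unadjusted p under 0.05 in limma.

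Among 11 genes for the ligands of the member receptors, TGF-beta signalling and nucleotide enzymes, none passed. Of all genes 0.390% rose and 0.561% fell. At an unadjusted p under 0.05 limma had 1 higher and 1 lower, where 7.88% of all genes were higher and 7.13% lower at that level. The ligands were chosen after their values were seen. Csf1 differed by 0.32 (SE 0.26), Il34 by 0.38 (SE 0.37) and Cx3cl1, fractalkine, by -0.21 (SE 0.20), and their groups overlapped. The 4 probe sets of Csf1 ran from 0.17 to 0.72. Those of Cx3cl1, also 4, ran from -0.30 to 0.59, so its sign depended on the probe set. Tgfb2, a TGF-beta ligand, measured 4.42, 4.23 and 7.48 in the reactive group, against 7.80, 8.46 and 7.92 in the non-reactive group. Reactive replicate 3 came close to the non-reactive arrays while the other reactive arrays were dim, and the log2 fold change of -2.68 had an SE of 0.85 and a limma adjusted p of 0.256. The 4 probe sets of Tgfb2 ran from -2.68 to 0.65. Smad3, a transducer of that signal, differed by 0.43 without passing.

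Of 10 myeloid transcription factors 9 were measured and none passed, with 2 higher and 1 lower at an unadjusted p under 0.05 in limma. At that level 7.88% of all genes were higher and 7.13% lower. Since only 0.390% of all genes rose and 0.561% fell at the adjusted threshold, the lack of a call among 9 genes shows little. Cebpb, a factor of inflammatory gene expression, measured 8.52, 9.35 and 9.93 in the reactive group, against 7.08, 7.48 and 7.28 in the non-reactive group. Its groups did not overlap, with a log2 fold change of 1.99 (SE 0.37, limma adjusted p = 0.0804). The other Cebpb probe set differed by 0.58. Mef2c, a factor of microglia and neurons, differed by -1.26, with its 5 probe sets between -1.32 and 0.73, and Cebpa by 0.31. Spi1, which encodes PU.1, was chosen after its values were seen. It gave 6.40, 5.66 and 6.75 in the reactive group, against 5.59, 5.38 and 6.32 in the non-reactive group. These overlapped, with a log2 fold change of 0.51 (SE 0.38).

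Of 23 measured pan-macrophage genes, expressed by macrophages in general, 9 rose and none fell on the same arrays. The list holds lysosomal, complement and phagocytic genes, whose level also varies with the state of the cells. Of all genes 0.390% rose and 0.561% fell. All 23 values were above 0, against 60.7% of all genes, with a median log2 fold change of 1.94. Cyba, a subunit of the phagocyte oxidase, measured 10.74, 10.68 and 12.39 in the reactive group, against 7.09, 5.52 and 5.72 in the non-reactive group, a log2 fold change of 5.16 (SE 0.60, limma adjusted p = 0.0283). The lysosomal gene Cd68 rose by 4.12, Cd14, a co-receptor for lipopolysaccharide, by 4.10 and the complement gene C1qc by 3.81. Ctss, a lysosomal protease, differed by 1.52, C1qb by 1.77 and Laptm5 by 1.09 without passing at the probe set with the highest mean. Tyrobp and Trem2, the adaptor and receptor of a microglial signalling pair, were chosen after their values were seen. Tyrobp, through which Siglech also signals, measured 12.13, 11.70 and 12.39, against 9.21, 9.32 and 9.91 in the non-reactive group, and rose by 2.59 (SE 0.29, limma adjusted p = 0.0260). Trem2 rose by 2.24 (SE 0.28, limma adjusted p = 0.0341). For Trem2 the other probe set differed by 0.56, and the 3 of C1qb ran from 1.53 to 3.88, of which 1 passed. The count of 9 rises became 1 when reactive replicate 1 was left out, 3 for replicate 2 and 2 for replicate 3. It was 0 when any non-reactive array was left out, and with a replicate block, settings that left 1 to 4 of all probe sets called.

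**Figure D3:**
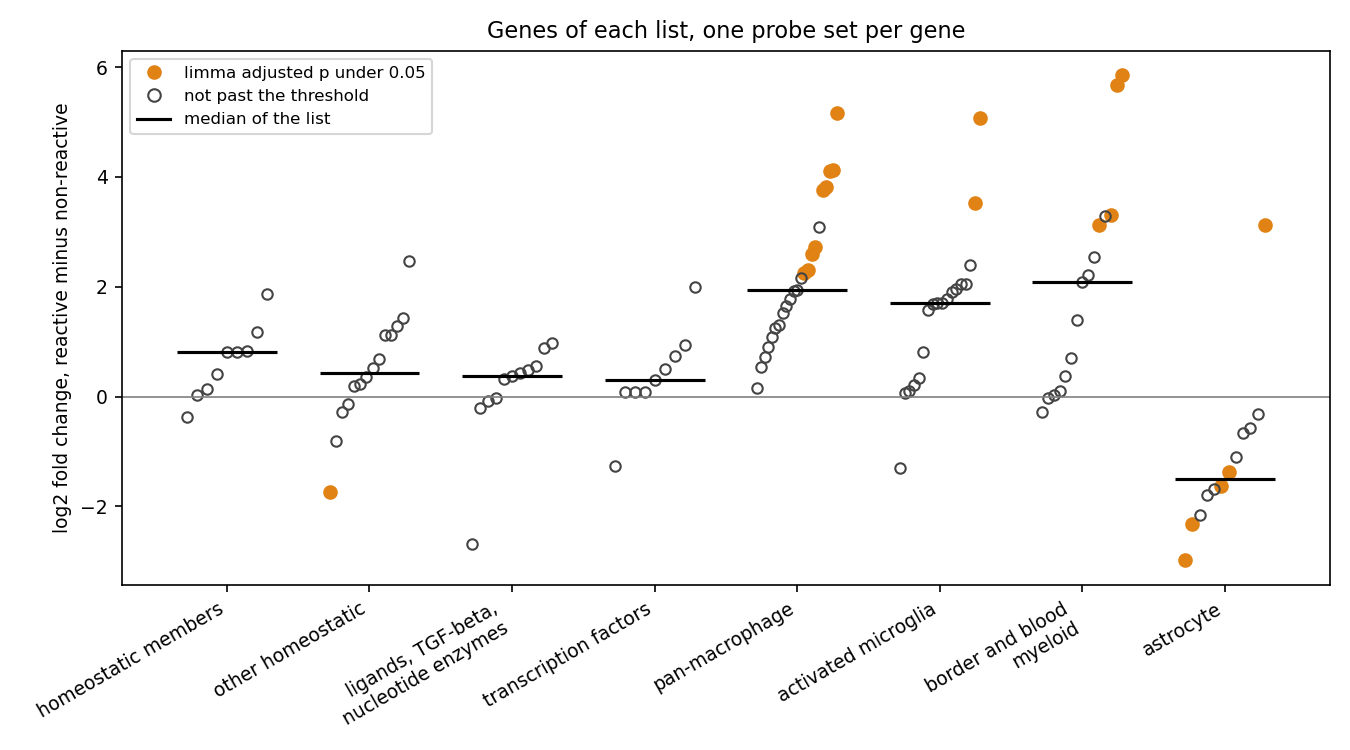
Log2 fold change, reactive minus non-reactive, of each measured gene in 8 lists, 1 probe set per gene; filled orange points passed limma's adjusted threshold, open points did not, and bars are list medians. The homeostatic members lie between -0.37 and 1.86 with no filled point, whereas the pan-macrophage genes reach 5.16 with 9 filled points.

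Array means of the members and of the pan-macrophage genes were set side by side. The mean of the 9 members, each by its brightest probe set, was 7.69, 7.58 and 7.65 in the reactive group, against 7.12, 7.16 and 6.73 in the non-reactive group, a difference of 0.64. That of the 23 pan-macrophage genes was 9.08, 8.82 and 9.52, against 7.03, 6.80 and 6.96 in the non-reactive group, a difference of 2.21. Neither mean overlapped between the groups, which was not particular to these 2 lists. The means of the other homeostatic genes, transcription factors, activated microglia, border and blood myeloid, and oligodendrocyte genes did not overlap either. That of the astrocyte genes was separated in the opposite direction. Only those of the ligand and TGF-beta, neuronal and endothelial lists overlapped. P2ry12 entered the member mean at 5.37, 8.03 and 4.44 in the reactive group, so the mean on reactive replicate 2 rested in part on that gene. Since the pan-macrophage list holds genes that vary with the state of the cells, its mean is not a measure of macrophage number. Whether these 2 differences differ from each other was not tested.

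Genes linked to activated microglia gave 2 rises and no fall among 18 measured, with a median log2 fold change of 1.71. Over all genes 0.390% rose and 0.561% fell. Cd52, a surface glycoprotein of leukocytes, rose by 3.52 (SE 0.36, limma adjusted p = 0.0231), and Lgals3, galectin-3, rose by 5.07. Ctsb, a lysosomal protease, differed by 1.77, Fth1, ferritin heavy chain, by 0.21 and Apoe by 0.10 without passing. For Fth1 the other probe set differed by 1.825, and the 5 of Ctsb ran from 0.21 to 2.46. The call count on this list became 0 when reactive replicate 1 was left out, 4 for reactive replicate 2 and 0 for any non-reactive array.

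Among 15 measured genes of border macrophages, monocytes and neutrophils 4 rose and none fell, where 0.390% of all genes rose and 0.561% fell. The count became 2 when reactive replicate 1 was left out and 0 for any non-reactive array. The mean of the list ran from 5.94 to 7.43 in the reactive group, against 4.35 to 4.79 in the non-reactive group. The lysozyme genes Lyz1 and Lyz2, near-identical copies that the probes may not separate, rose by 5.85 and 5.67. Plac8 rose by 3.31 and Ms4a7, a gene of border and infiltrating macrophages, by 3.12. Their non-reactive means of 4.36 and 4.52 were under 4.74, so these sizes are uncertain. Another Lyz1 probe set differed by 0.60 and another of Ms4a7 by 0.10. Pf4 differed by 2.54, F13a1 by 3.28 and Fn1 by 2.21 without passing, and all 3 were highest on reactive replicate 3. In all, 13 of the 15 values were above 0, against 60.7% of all genes, with a median log2 fold change of 2.08. They included the granulocyte gene S100a8, which differed by 1.40 without passing, and Chil3, which differed by 2.08 without passing and measured 8.33 on reactive replicate 3, against 3.53 and 3.19 on the other reactive arrays. The non-reactive means of S100a8 and Chil3, 4.02 and 2.93, were under 4.74. That of F13a1, 4.83, was near it, so the sizes for these genes are uncertain too. S100a8, Chil3 and the receptors that follow were chosen after their values were seen. Ccr2, the chemokine receptor of inflammatory monocytes, measured 5.14, 5.29 and 5.38 in the reactive group, against 5.19, 5.26 and 5.45 in the non-reactive group. The log2 fold changes of its 4 probe sets ran from -0.03 to 0.53. Mrc1 and Cd163, receptors of border macrophages, had no array above 3.44 in either group. The part of infiltrating cells in the values of the members was not tested.

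Of 12 astrocyte genes Gfap rose and 4 fell, where 0.390% of all genes rose and 0.561% fell. The call for Gfap was lost under all 3 scalings, with robust eBayes, after removal of probe sets open to cross-hybridisation, and with any 1 array left out. The count of falls became 2 with robust eBayes and after that removal, and 0 to 2 with an array left out. Gfap, whose promoter drives the reporter of the reactive group, rose by 3.12, while Slc4a4, a bicarbonate cotransporter, fell by 2.98, the transcription factor Sox9 fell by 2.31 and the glutamate transporter Slc1a3 fell by 1.62. The values depended on the probe set, running from -2.98 to -0.17 over the 5 of Slc4a4 and from -2.31 to -0.22 over the 3 of Sox9. The mean of the list was 9.65 to 10.00 in the reactive group, against 10.76 to 11.09 in the non-reactive group. Among 9 oligodendrocyte genes Ermn rose by 2.17, a call lost with any 1 array left out, and the mean of that list was 9.31 to 9.69, against 8.003 to 8.93 in the non-reactive group. None of 8 neuronal and 7 endothelial genes passed, with 1 neuronal and 0 endothelial at an unadjusted p under 0.05 in limma. At that level 7.88% of all genes were higher and 7.13% lower. The differences between 3′ and 5′ control probe sets, which follow the length of the labelled RNA, averaged 4.17 in the reactive group and 5.19 in the non-reactive group for Gapdh, 3.38 and 5.05 for Actb, and 1.44 and 3.46 for Pcx. The part of these gene groups and of RNA quality in the values of the members was not tested.

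**Figure D4:**
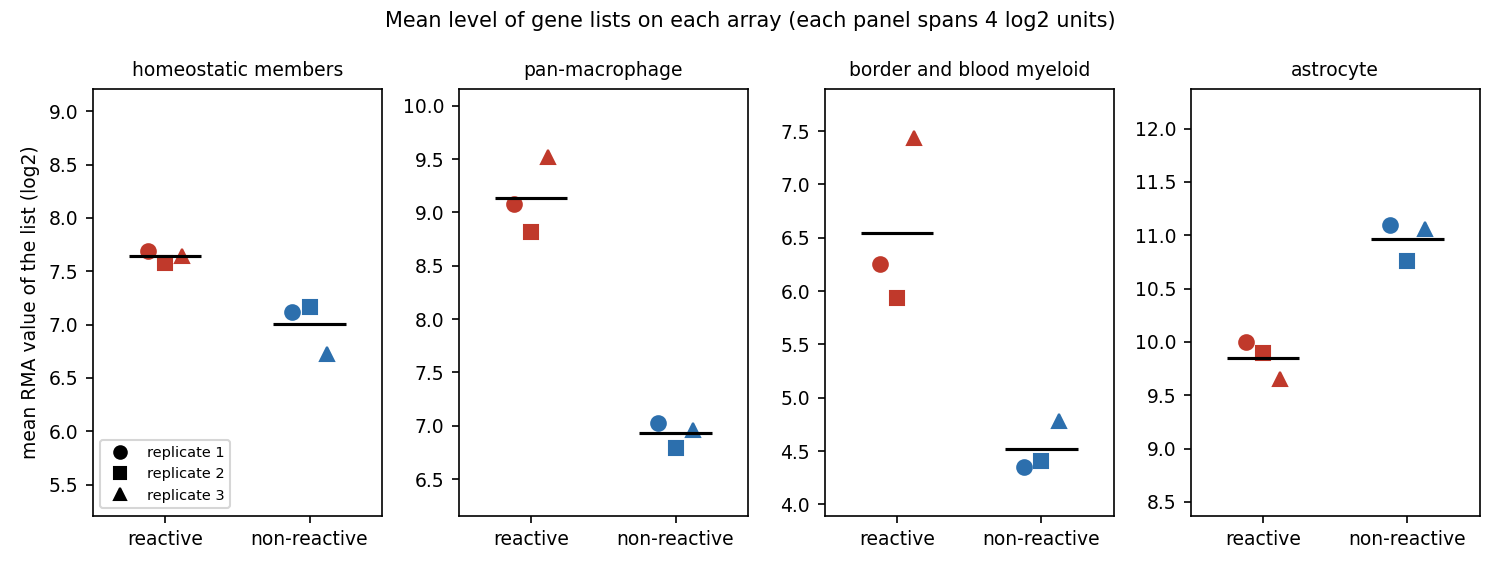
Mean RMA value (log2) of 4 gene lists on each array, reactive on the left and non-reactive on the right of each panel; markers give the replicate, bars the group mean, and each panel spans 4 log2 units. The members lie between 7.58 and 7.69 in the reactive group and between 6.73 and 7.16 in the non-reactive group, and the pan-macrophage genes between 8.82 and 9.52 in the reactive group and between 6.80 and 7.03 in the non-reactive group.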

How the data were processed

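The authors deposited log2 expression values of 6 arrays, made with RMA per the submitters' processing notes. Which version and settings of RMA were used, and on which arrays jointly, is not given in the sources used here. RNA was amplified and labelled in 2 rounds per the labels' protocols. Depth does not apply to arrays, and their number limits the precision.

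After 64 control probe sets were left out, 45037 were compared by a limma fit (version 3.58.1, R 4.3.3, moderated with eBayes) of reactive minus non-reactive on all 6 arrays, with no covariate. P-values are two-sided, and adjusted ones are Benjamini-Hochberg values over all probe sets, called below 0.05. The fit was tested on simulated data. The platform annotation gave 1 symbol for 34945 probe sets, several for 932 and none for 9160. A listed gene was represented by its probe set with the highest mean, over 18193 genes. No array was found deposited more than once, the highest correlation of any pair being 0.963.

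The members and lists were chosen with earlier results of these data known. Every member probe set is named, and in each list at most 4 called genes were named by size of change, and at most 3 that were not called by their mean. Genes said to be chosen after their values were seen were named beyond this rule. Neither labels nor files give a batch. Alternatives were 3 scalings, eBayes with trend or robust, a filter on dim probe sets, removal of probe sets open to cross-hybridisation, a block for the replicate number, leaving out each array, and averaging the probe sets of a gene.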

Additional observations from a re-analysis of the deposited data

How the results depend on the processing

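No member probe set passed limma's adjusted threshold under 13 of 14 alternatives, and 1, Tmem119, passed with cyclic loess (log2 fold change 1.23, adjusted p = 0.0495). The number at an unadjusted p under 0.05 was 6 as reported, 3 with the filter on dim probe sets, which tests 22517, and 3 to 7 with 1 array left out, the low of 3 being without non-reactive replicate 3. The median log2 fold change of the member probe sets stayed between 0.61 and 0.83. With 1 array left out, signs turned for the brighter Cx3cr1 probe set (-0.25 to 0.24), for Siglech (-0.052 to 0.31) and for P2ry12 (-0.21 to 1.59). Those of Cx3cr1 turned when reactive replicate 1 or non-reactive replicate 3 was missing, that of Siglech without reactive replicate 1 and that of P2ry12 without reactive replicate 2. The other 10 probe sets kept their sign in every alternative that included them.

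Of 126 genes on the comparison lists 22 passed, and 16 to 23 under the scalings, the eBayes settings, the filter, the removal of probe sets and the averaging of probe sets per gene. With 1 array left out the number was 0 to 12: 4, 11 and 12 without reactive replicate 1, 2 and 3, and 0 when a non-reactive array was missing, with 57 to 59 genes at an unadjusted p under 0.05 in limma. A replicate block left 0 of them called by limma, with 63 at an unadjusted p under 0.05, and 0 member probe sets, with 4. Over all 45037 probe sets limma called 383 as reported and 1 with the block. Without reactive replicate 1, 2 and 3 it called 57, 173 and 166, and without non-reactive replicate 1, 2 and 3 it called 1, 1 and 4. The labels do not say that the numbers pair the samples. The deviations of same-numbered arrays from their group means correlated at -0.07, -0.11 and 0.04. Those of differently numbered arrays ran from -0.11 to 0.19. With 3 arrays per group such values cannot settle whether the samples are paired. Fewer arrays or degrees of freedom are part of these settings by construction. All numbers are of 3 arrays per group, and dim probe sets such as those of Gpr34 limit the size of what can be read.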
